A study of Mus musculus with 4 samples.

Results

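Transcripts of 10 genes that cells use to recognise and take up dying cells were measured in cells sorted from the spinal cord of 4 mice. The genes were taken by symbol from a table of 42458 rows, and all 10 were present. They code for the TAM receptors (Tyro3, Axl and Mertk), their bridging ligands Gas6 and protein S (Pros1), the receptors Megf10, Stab1 and Cd36, and the integrin subunits Itgav and Itgb5. Every mouse was labelled C57BL6, with no age given, and had received the virus AAV2-CAG-tdT, which carries the red fluorescent protein tdTomato behind the broadly active CAG promoter, into a brain ventricle. From each, 50 live tdTomato-positive cells around the central canal were collected by a sort meant to enrich CSF-cNs, the neurons that contact the cerebrospinal fluid, and their RNA gave 1 library. There is 1 group and no contrast, so levels, their spread between mice and ratios within a mouse are reported.

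Cells that die by apoptosis expose phosphatidylserine on their surface, and phagocytes read it directly or through a soluble bridge. Gas6 and protein S bind this lipid with a vitamin K-dependent domain and activate the TAM receptor tyrosine kinases, protein S acting on Tyro3 and Mertk and Gas6 on each of the TAM receptors. The integrin of the alpha v and beta 5 subunits takes part in the same uptake through the bridge protein Mfge8, and in the nervous system microglia and astrocytes are the main cells known to engulf.

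The libraries held 83007030 to 115479640 counts. Markers of microglia, the resident macrophages of the cord, summed to 33837 to 54539 CPM (counts scaled to library size with TMM factors), and each of the 10 reached 10 CPM in every library. The 8 CSF-cN markers summed to 20.3, 12.9, 941 and 846 CPM in mice 1, 2, 3 and 4, the order used for all lists of 4 values. Among them Pkd2l1 stood at 17.9, 0.193, 664 and 690 CPM. Tal1, at 0.898, 10.3, 10.8 and 14.8 CPM, made up most of the sum in mouse 2. The transgene row AAV2.CAG.tdT had 5, 58, 13533 and 153379 counts and was thus nearly absent from mice 1 and 2. Another row with tdT in its name, PC.G5.tdT, had 0, 8, 760 and 9924 counts. In bulk RNA of sorted cells, fewer cells of a type and less RNA per cell cannot be told apart.

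The TAM receptors differed from each other in level and in the libraries that held them, so the 250 bases before their RefSeq start sites are shown (GRCm38.p6, 5′ to 3′ on the strand of the gene). Capitals mark GGGCGG, the GC box, and GAGGAA, the core bound by the myeloid factor PU.1, on either strand (read in reverse as CCGCCC and TTCCTC); these motifs do not overlap here. The windows are chr2:128698665-128698914 on the plus strand for Mertk, chr7:25788734-25788983 on the minus strand for Axl and chr2:119799264-119799513 on the plus strand for Tyro3. Of the Tyro3 window, 128 bases lie in exons that GENCODE gives to non-coding transcripts of the same gene.
Mertk: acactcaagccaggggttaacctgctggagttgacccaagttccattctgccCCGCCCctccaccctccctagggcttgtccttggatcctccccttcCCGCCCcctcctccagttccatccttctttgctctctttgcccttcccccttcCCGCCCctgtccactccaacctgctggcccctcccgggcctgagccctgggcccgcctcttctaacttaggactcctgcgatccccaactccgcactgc
Axl: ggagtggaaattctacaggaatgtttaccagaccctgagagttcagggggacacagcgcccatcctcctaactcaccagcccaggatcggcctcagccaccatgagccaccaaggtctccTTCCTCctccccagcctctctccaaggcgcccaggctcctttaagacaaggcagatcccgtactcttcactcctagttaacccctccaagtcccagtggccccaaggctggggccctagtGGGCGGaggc
Tyro3: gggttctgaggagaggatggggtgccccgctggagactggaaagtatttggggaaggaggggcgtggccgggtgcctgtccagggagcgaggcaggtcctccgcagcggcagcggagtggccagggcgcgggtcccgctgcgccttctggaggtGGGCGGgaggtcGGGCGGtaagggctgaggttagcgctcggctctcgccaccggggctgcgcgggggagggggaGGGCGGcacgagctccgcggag
The Mertk window held 3 GC boxes and no GAGGAA, the Axl window 1 of each, and the Tyro3 window 3 GC boxes and no GAGGAA. A window was found for 9 of the 10 genes, of which 7 held a GC box and 3 held GAGGAA, where 32.7% and 23.3% of all 32851 RefSeq windows of this length did. A match describes these letters only.

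Of the 10 genes, 8 exceeded 10 CPM in the quasi-likelihood test of edgeR with Benjamini-Hochberg adjustment over all tested genes, and 0 below. Over all 18522 tested genes 36.7% were called above and 0.664% below. The same 8 genes reached 10 CPM in each of the 4 libraries, as 36.5% of all tested genes did. The median level of the 10 relative to 10 CPM was 2.76 on the log2 scale, beside -0.07 for all tested genes. The genes outside the call were Tyro3 and Megf10. Of the 10 genes 0 were below 10 CPM at an unadjusted p under 0.05 as well, and limma-voom and DESeq2 also called 8 above and 0 below. Over all 18522 tested genes limma-voom called 6642 above and 6164 below, and DESeq2 6303 above and 2049 below. edgeR made few calls below 10 CPM over all genes, 123 with 4 mice and 0 without any single mouse, so levels below 10 CPM are read from the values.

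**Figure D1:**
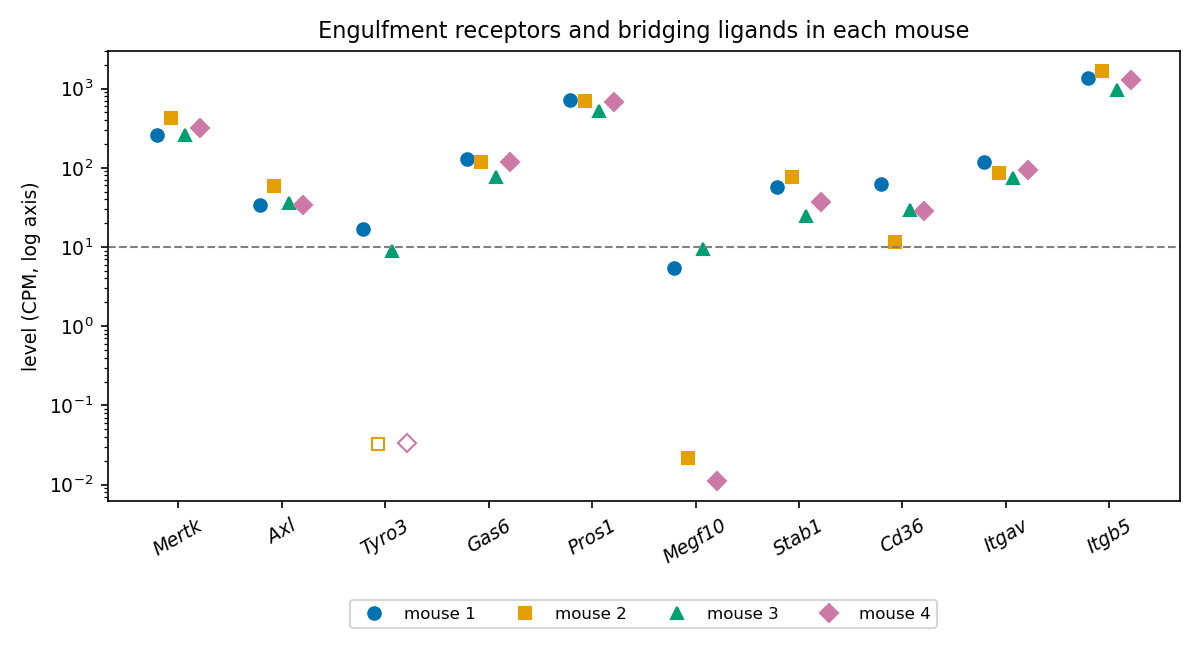
Level of each gene in each mouse, in CPM on a log axis; each point is 1 library, open points are libraries without a count drawn at the level that 3 counts would give, and the dashed line marks 10 CPM. For 8 genes all 4 points lie above the line, while Tyro3 and Megf10 are present in mice 1 and 3 and at or near 0 in mice 2 and 4.

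Among the TAM receptors, Mertk, the member best known from clearance by microglia and the retinal epithelium, was found in quantity in every library. Mertk stood at 256, 425, 261 and 314 CPM, highest in mouse 2 and 1.66 times as high there as in mouse 1. Its mean was 314 ± 78.1 CPM (SD, n = 4), a log2 level of 4.97 relative to 10 CPM (SE 0.08, edgeR adjusted p = 4.5e-08). The SE of this and the other edgeR levels was back-calculated from the test statistic. The gene spans 128698956 to 128802894 of chromosome 2 (plus strand, GRCm38, ENSMUSG00000014361.5). Gm14011 on the other strand and the snoRNA gene Gm23172 on the same strand overlap its span without sharing exonic bases.

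Axl, the receptor with the highest affinity for Gas6, was lower and about as steady. Axl stood at 34.0, 58.4, 35.8 and 34.3 CPM, with 3 libraries close together and mouse 2 above them. The mean was 40.6 ± 11.9 CPM (SD, n = 4), and the log2 level of 2.02 (SE 0.17) was called above 10 CPM (edgeR adjusted p = 8.7e-05). Axl spans 25757273 to 25788705 of chromosome 7 (minus strand, ENSMUSG00000002602.16).

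Tyro3, the TAM receptor typical of neurons and myelinating cells, was present in only 2 libraries. It had 1823, 0, 770 and 0 counts, or 16.9, 0, 8.93 and 0 CPM. The 2 libraries without a count allow levels of up to 0.0321 CPM in mouse 2 and 0.0334 CPM in mouse 4 (3 counts; counting error only). The 95% Clopper-Pearson intervals in the others were 16.1 to 17.7 CPM in mouse 1 and 8.31 to 9.58 CPM in mouse 3. Over the 4 mice the mean was 6.45 ± 8.13 CPM (SD), which edgeR did not separate from 10 CPM (log2 -0.63, SE 1.78, adjusted p = 0.77). Tyro3 spans 119797733 to 119818104 of chromosome 2 (plus strand, ENSMUSG00000027298.17).

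Levels of different genes were compared after division by exonic length, because these libraries cover whole transcripts and counts grow with length. Mertk made up 86.2%, 89.4%, 87.6% and 91.4% of the TAM receptor level in CPM per kb, Axl 8.6% to 10.6%, and Tyro3 at most 3.97%. The log2 ratio of Mertk to Axl was 3.11, 3.07, 3.07 and 3.39, so the excess of Mertk hardly varied between mice (mean 3.16 ± 0.16, SD, n = 4). In the libraries with Tyro3 counts, mice 1 and 3, the log2 ratio of Mertk to Tyro3 was 4.39 and 5.29 and that of Axl to Tyro3 1.28 and 2.23. In mice 2 and 4, where Tyro3 had no count, the sign is fixed and the size is set by the pseudocount, so no mean or test of these pairs is read. Mertk exceeded Axl in 4 of 4 mice (exact two-sided sign-flip permutation test, 2 of 16 sign patterns as extreme, p = 0.139 after adjustment over 10 pairs). With 4 mice at least 2 of 16 patterns are always as extreme, so the test cannot pass 0.05.

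Both bridging ligands were present in every library, protein S the higher. Pros1 codes for protein S, a plasma anticoagulant that also acts as a TAM ligand, and stood at 720, 694, 521 and 672 CPM (mean 652 ± 89.4, SD, n = 4). It was the steadiest of the 10 genes, with an SD of 0.21 in log2(CPM + 1), and 90.8% of the 9125 genes that averaged 10 CPM or more had a larger SD. edgeR placed it 6.03 log2 units above 10 CPM (SE 0.06, adjusted p = 5.1e-09). Pros1 spans 62854307 to 62929346 of chromosome 16 (plus strand, ENSMUSG00000022912.8).

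Gas6 stood at 128, 120, 76.7 and 117 CPM, with mouse 3 below the other libraries, and had a mean of 110 ± 22.7 CPM (SD, n = 4; log2 level 3.46, SE 0.11, edgeR adjusted p = 6.1e-07). It spans 13465374 to 13494490 of chromosome 8 (minus strand, ENSMUSG00000031451.6). Its exons share 34 bases with Tmem255b on the other strand, and these unstranded libraries cannot divide reads there; Tmem255b stood at 0, 0.706, 10.1 and 1.38 CPM. Per kb, Gas6 was below Pros1 in 4 of 4 mice (log2 ratio -1.81, -1.85, -2.08 and -1.84, mean -1.90 ± 0.12; exact sign-flip permutation test, adjusted p = 0.139). Mertk lay between the 2 ligands, above Gas6 by a log2 ratio of 0.74 ± 0.38 and below Pros1 (-1.16 ± 0.32), again in 4 of 4 mice with the same p.

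Of the integrin subunits, Itgb5 had the highest length-scaled level of the 10 genes. Itgb5, the beta 5 subunit, stood at 1357, 1657, 949 and 1284 CPM (mean 1312 ± 291, SD, n = 4), highest in mouse 2 and lowest in mouse 3. The log2 level relative to 10 CPM was 7.04 (SE 0.06, edgeR adjusted p = 2.3e-09). It spans 33829665 to 33949338 of chromosome 16 (plus strand, ENSMUSG00000022817.15).

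Its partner Itgav, the alpha v subunit, stood at 120, 87.0, 74.7 and 95.0 CPM (mean 94.2 ± 19.3, SD, n = 4; log2 level 3.24, SE 0.11, edgeR adjusted p = 8.5e-07). Itgav spans 83724397 to 83806916 of chromosome 2 (plus strand, ENSMUSG00000027087.11). Of its exonic bases 634 are shared with Gm13684 on the other strand, which has no row of that name in the counts, so its level could not be given. Per kb, Itgav was below Itgb5 by a log2 ratio of -5.08, -5.83, -5.24 and -5.34 (mean -5.37 ± 0.32), in 4 of 4 mice (exact sign-flip permutation test, adjusted p = 0.139). Without division by length this mean was -3.79.

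Alpha v also pairs with the beta 1, beta 3, beta 6 and beta 8 subunits. Of the summed length-scaled level of these beta subunits, Itgb5 made up 82.1%, 83.7%, 78.6% and 81.5%, and Itgb1, which also pairs with many other alpha subunits, 15.7% to 20.6%. Itgb3, the other subunit known for uptake with alpha v, was at 21.7, 17.3, 12.5 and 19.1 CPM and edgeR could not tell it from 10 CPM (log2 level 0.82, SE 0.27, adjusted p = 0.059), though limma-voom called it above (adjusted p = 0.039). Itgb5 exceeded Itgb3 per kb by a log2 ratio of 6.90 ± 0.26 in 4 of 4 mice (exact sign-flip permutation test, adjusted p = 0.139).

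**Figure D2:**
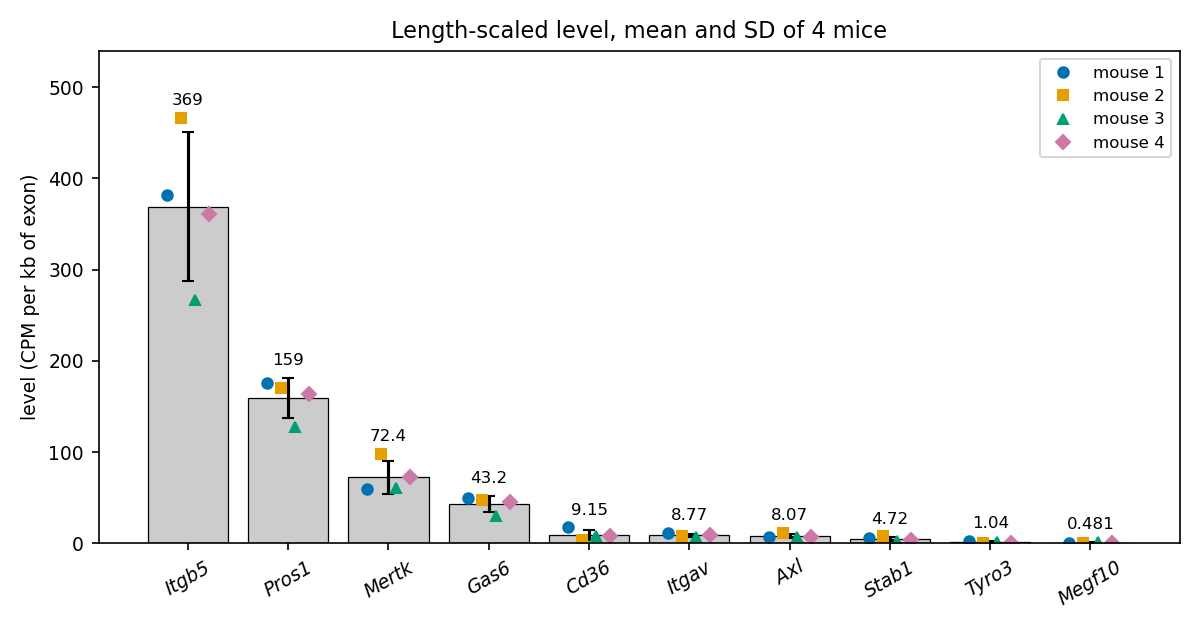
Level of each gene in CPM per kb of exon; bars are means and error bars SD of 4 mice, points are single mice, and the number above each bar is the mean. Itgb5 at 369 CPM per kb, Pros1 at 159, Mertk at 72.4 and Gas6 at 43.2 stand above the other 6 genes, which lie at 9.15 or below.

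The order of the length-scaled means was Itgb5 (369 ± 81.8 CPM per kb), Pros1 (159 ± 21.9), Mertk (72.4 ± 18.0), Gas6 (43.2 ± 8.92), Cd36 (9.15 ± 5.89), Itgav (8.77 ± 1.80), Axl (8.07 ± 2.36), Stab1 (4.72 ± 2.19), Tyro3 (1.04 ± 1.31) and Megf10 (0.481 ± 0.589). The first 4 of these genes each exceeded the next in 4 of 4 mice. Cd36, Itgav and Axl could not be ordered, because each neighbour pair went either way in 2 of 4 mice and differed by less than its SD. Axl exceeded Stab1 in 4 of 4 mice (mean log2 ratio 0.85 ± 0.53). Stab1 was at 5.52 CPM per kb in mouse 1 and 2.38 in mouse 3, where Tyro3 was at 2.72 and 1.44, and Tyro3 had no count in mice 2 and 4. Tyro3 and Megf10 were compared only in mice 1 and 3, since both were under the floor of 3 counts in the others.

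**Figure D3:**
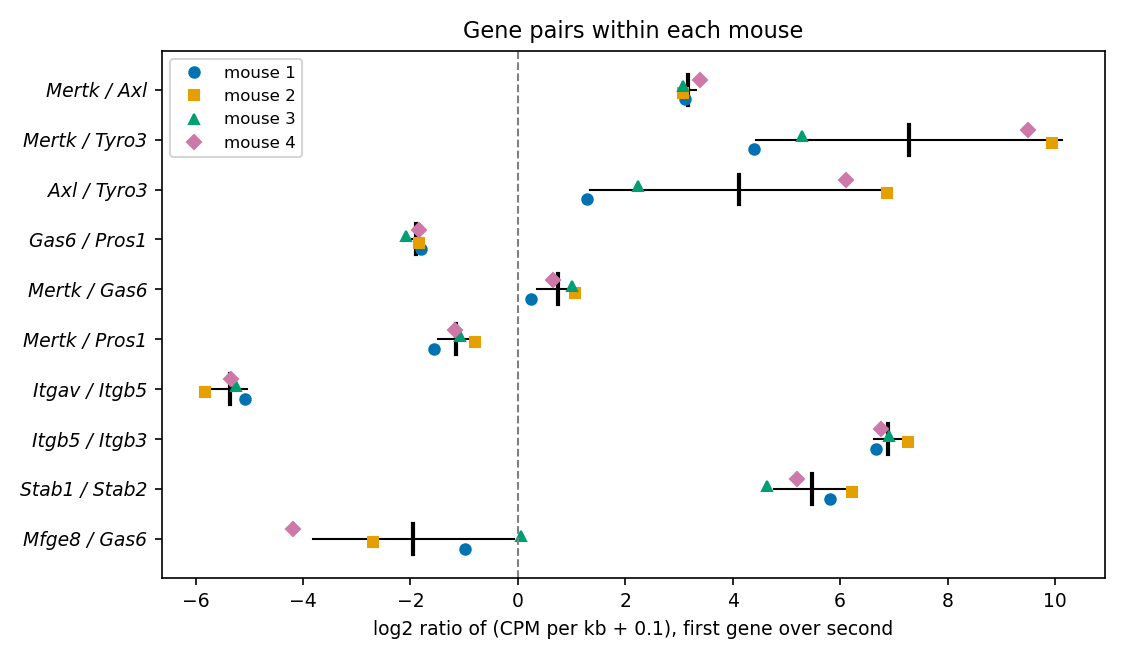
Log2 ratio of the first over the second gene within each mouse, from CPM per kb plus 0.1; points are mice, vertical bars the means and horizontal lines the SD. The points of Mertk over Axl and of Gas6 over Pros1 lie close together, whereas the points of Mertk and Axl over Tyro3 in mice 2 and 4, and all points of Stab1 over Stab2, are set by the pseudocount because the second gene had no count, and those of Mfge8 over Gas6 from -4.18 to 0.06.

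The remaining receptors were low and varied between mice. Cd36, a scavenger receptor and fatty acid transporter, stood at 62.0, 11.4, 29.6 and 28.4 CPM, highest in mouse 1 and lowest in mouse 2, a 5.45-fold range. Its mean was 32.8 ± 21.1 CPM (SD, n = 4; log2 level 1.72, SE 0.31, edgeR adjusted p = 0.0045), and only 16.9% of genes that averaged 10 CPM or more had a larger SD of log2(CPM + 1). It spans 17781690 to 17888801 of chromosome 5 (minus strand, ENSMUSG00000002944.15).

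Stab1 codes for stabilin-1, a scavenger receptor of macrophages and sinusoidal endothelium that binds phosphatidylserine. It stood at 56.8, 75.9, 24.5 and 36.9 CPM (mean 48.5 ± 22.6, SD, n = 4; log2 level 2.28, SE 0.22, edgeR adjusted p = 1.6e-04), with mice 1 and 2 above mice 3 and 4. The gene spans 31139013 to 31168641 of chromosome 14 (minus strand, ENSMUSG00000042286.13) and shares 112 exonic bases with Nt5dc2 on the other strand (7.34, 27.7, 18.2 and 3.57 CPM). Its paralog Stab2 had no count, so the sign of their ratio is fixed and its test is not read.

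Megf10, a receptor through which astrocytes engulf synapses and cell debris, had 592, 2, 804 and 1 counts, or 5.48, 0.0214, 9.32 and 0.0111 CPM. In mice 2 and 4 these counts lie under the floor of 3 counts. The mean was 3.71 ± 4.54 CPM (SD, n = 4), which edgeR could not tell from 10 CPM (log2 level -1.43 with an SE of 1.69, adjusted p = 0.49). Megf10 and Tyro3 were thus both at 5.48 CPM or more in mice 1 and 3 and both at 0.0214 CPM or less in mice 2 and 4. Per kb, Tyro3 was the higher of them in mouse 1 (2.72 beside 0.71 CPM per kb) and in mouse 3 (1.44 beside 1.21).

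Markers of other cell types were set beside the variable genes. The 8 oligodendrocyte markers summed to 14709, 236, 18726 and 453 CPM, high in the libraries that held Tyro3 and Megf10. The 10 astrocyte markers summed to 1253, 161, 1348 and 300 CPM. In mice 1 and 3 most of this sum came from Aldoc and S100b, and Slc1a3 was at 115, 122, 52.1 and 155 CPM. Aqp4, a defining astrocyte gene, was at 0.00926, 0.182, 0.707 and 5.45 CPM and Slc1a2 at 0.29 CPM or less. Gfap was at 3.91, 23.4, 7.79 and 0 CPM, highest in mouse 2, and Gja1 at 1.45, 0, 0.0232 and 10.8 CPM, highest in mouse 4. Aldh1l1, Slc7a10 and Fgfr3 were at 0.858 CPM or less. The part of these cells in the levels of Tyro3 and Megf10 was not tested.

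The 8 markers of border macrophages, which line the vessels and meninges, summed to 93.0, 45.5, 52.9 and 70.7 CPM, and their defining genes Lyve1 and Cd209f had no count. Mrc1, the highest of the list, stood at 38.2, 16.4, 36.5 and 30.3 CPM. Cd36 was highest and lowest in the same mice as this sum, and Stab1 was highest in mouse 2, where the sum was lowest. Single markers of the list differed: Mrc1, F13a1 and Ms4a7 were highest in mouse 1, like Cd36. Cd163 (0.0278, 7.93, 0 and 0 CPM) and Cbr2 (9.36, 10.6, 1.6 and 0.178 CPM) were highest in mouse 2, like Stab1. Pf4 was highest in mouse 4 (17.6 CPM). A numbered copy of Pf4, left out of the sum, held 22.6, 2.7, 9.82 and 0 CPM. Of the endothelial markers Cdh5 and Tek had no count and Cldn5 had counts in mouse 1 alone (0.0278 CPM); the list summed to 22.7, 12.5, 20.0 and 25.6 CPM. Pecam1, which leukocytes also express, stood at 18.1, 12.1, 9.04 and 14.6 CPM, and the endothelial receptor genes Flt1 (0, 0.0214, 5.18 and 8.46 CPM) and Kdr (1.40, 0.0321, 5.82 and 2.53 CPM) were higher in mice 3 and 4. Among monocyte and neutrophil markers Ly6c2, S100a8, S100a9 and Ly6g had no count, and the list summed to at most 2.99 CPM. The part of border macrophages in the levels of Cd36 and Stab1 was not tested.

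The remaining lists were set beside the same genes. The precursor cells of oligodendrocytes gave at most 13.9 CPM with Pdgfra and Gpr17 at 0, mural cells at most 2.62 CPM, ependymal cells 0 to 59.3 CPM, Schwann cells at most 3.18 CPM and red blood cells at most 2.13 CPM. No lymphocyte marker had a count. Fibroblast markers summed to 8.37, 0.107, 994 and 109 CPM, with Col1a1 and Col3a1 at 0. Dcn gave 989 CPM of this in mouse 3 and 108 CPM in mouse 4, while in mouse 1 Col1a2 (6.96 CPM) exceeded Dcn (1.41 CPM). Neuron markers summed to 129, 73.9, 1060 and 366 CPM, with the higher sums in mice 3 and 4.

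**Figure D4:**
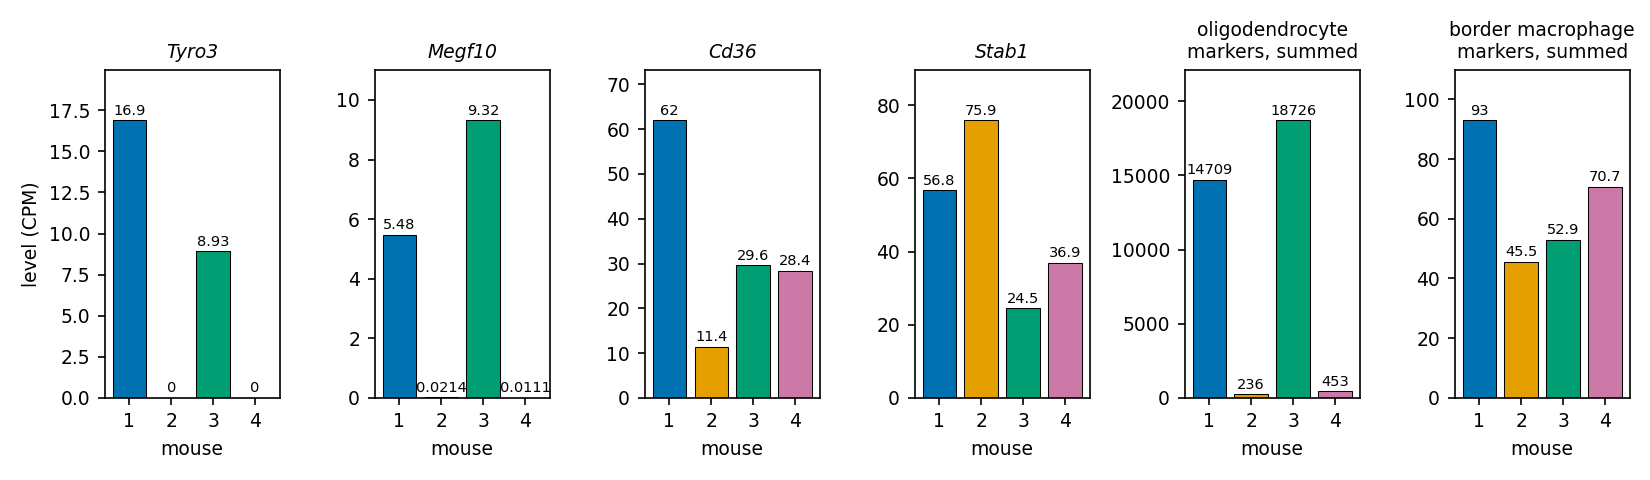
CPM in each mouse of the 4 genes that varied most and of 2 marker lists, with linear axes that start at 0 and differ between panels; each bar is 1 library. Tyro3, Megf10 and the oligodendrocyte markers are high in mice 1 and 3, Cd36 is highest in mouse 1 and Stab1 in mouse 2.

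The levels were also expressed per 1000 CPM of the summed microglial markers. On this scale Gas6 was at 2.36, 2.19, 2.27 and 2.47, and its coefficient of variation was 5.22% where it was 20.7% for CPM. For Itgb5 the ratio was 25.2, 30.4, 28.1 and 27.2 (7.78% where it was 22.1%), and for Pros1 13.4, 12.7, 15.4 and 14.3 (8.32% where it was 13.7%). Mertk (4.75, 7.78, 7.73 and 6.65) kept a variation of 21.0% where it was 24.9%, Axl 25.9% where it was 29.2%, and Cd36 56.6% where it was 64.4%. The variation was 30.9% where it was 46.5% for Stab1, 14.6% where it was 20.5% for Itgav and 116% where it was 126% for Tyro3. Megf10 went the other way, with 137% where it was 122%. The part of microglia in these levels was not tested.

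The genes whose pattern was most like each member were found by the largest difference over the 4 mice in centred log2(CPM + 1), among the 9125 genes that averaged 10 CPM or more. For Itgb5 the closest was Adgre1, the gene of the macrophage antigen F4/80 (569, 693, 402 and 539 CPM; largest difference 0.012), followed by 6820431F20Rik (0.019). Near Mertk was Phf20l1 (0.031). The 2 closest were, for Axl, Srrm1 (0.020) and Creld2 (0.045), for Gas6 Slc50a1 (0.012) and D3Ertd751e (0.016), for Pros1 Krit1 (0.0094) and Lpcat1 (0.033), and for Itgav Cap1 (0.025) and Asah1 (0.029). Stab1 was nearest to Alkbh3 (0.078) and Pik3cd (0.095), and Cd36 to Tacc3 (0.11) and Rwdd4a (0.14). Over only 4 libraries such likeness is common: 15 to 48 genes lay within 0.1 of Mertk, Axl, Gas6, Pros1, Itgav and Itgb5, but 2 of Stab1 and 0 of Cd36.

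The rest of the engulfment pathway was read from 11 lists with 99 genes. Of the 91 tested, edgeR called 56 above 10 CPM (61.5%, beside 36.7% of all tested genes) and 0 below, also 0 at an unadjusted p under 0.05. Of the same 91, limma-voom called 55 above and 11 below, where it called 6642 above and 6164 below of all 18522 tested genes. DESeq2 called 54 above and 3 below with no adjusted p for 8, beside 6303 above and 2049 below of all 18522. Their median log2 level was 2.28. The lists of phagosome maturation (8 of 10), feedback and shedding of TAM receptors (5 of 6) and uptake signalling (13 of 18) had most of their tested genes above 10 CPM. Other integrin subunits and lipid efflux genes (3 of 7 each) were near the share of all genes.

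**Figure D5:**
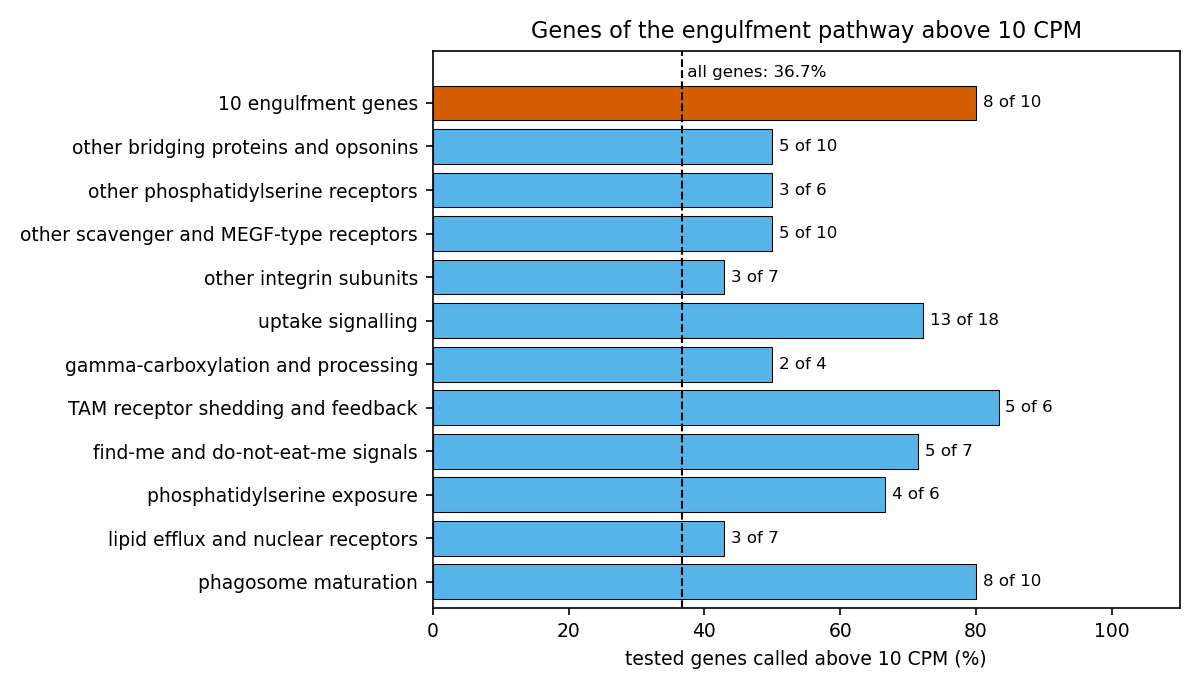
Percent of the tested genes of each list called above 10 CPM by edgeR; the number beside each bar gives the count and the dashed line the 36.7% of all tested genes. The 10 engulfment genes are at 8 of 10, and the other lists range from 3 of 7 to 5 of 6.

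Of the other bridging proteins and opsonins, 5 of 10 tested were above 10 CPM. The complement genes C1qb, C1qc and C1qa, whose product tags synapses and debris, had means of 6624 ± 1867, 4608 ± 1110 and 3016 ± 757 CPM (SD, n = 4). Mfge8, the bridge to the alpha v integrins, was at 119, 33.6, 147 and 11.4 CPM, and its paralog Edil3 at 163, 0.867, 220 and 37.1 CPM, both higher in mice 1 and 3. Per kb, Mfge8 was below Gas6 in mice 1, 2 and 4 and above it by a log2 ratio of only 0.06 in mouse 3 (mean log2 ratio -1.95 ± 1.87; exact sign-flip p = 0.25, adjusted 0.25 over 10 pairs). Tulp1, a proposed ligand of Mertk, had no count.

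Of the other phosphatidylserine receptors, 3 of 6 tested were above 10 CPM. These were Trem2 (535 ± 124 CPM, SD, n = 4), whose table row has a numbered copy with the same counts so that its level is uncertain, Havcr2, which codes for TIM-3 (285 ± 56.5), and the inhibitory receptor Cd300a (144 ± 36.9). Timd4, Havcr1 and Stab2 had no count, and Adgrb1, the receptor BAI1, was at 2.03 CPM or less. Among other scavenger and MEGF-type receptors 5 of 10 were above 10 CPM, led by the lysosomal marker Cd68 (1122 ± 211), the lipopolysaccharide co-receptor Cd14 (837 ± 168) and Scarb2 (186 ± 32.0). Megf11, the paralog of Megf10, had counts in every library, with a mean of 12.7 ± 6.95 CPM (SD, n = 4) and its highest level, 22.6 CPM, in mouse 4.

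The complement receptor subunits Itgam (444 ± 160 CPM) and Itgb2 (395 ± 87.3) and the broadly used Itgb1 (321 ± 29.6) were the other integrin genes above 10 CPM. In uptake signalling, the cytoskeletal GTPase genes Cdc42 (1398 ± 125 CPM) and Rac1 (819 ± 107) and Elmo1 (525 ± 80.9), part of the complex that activates Rac, were highest. Gulp1, the adaptor of Megf10-type receptors, had counts in mouse 3 alone (0.893 CPM).

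Of the enzymes that activate Gas6 and protein S, Vkorc1, the vitamin K reductase, had a mean of 116 ± 21.5 CPM (SD, n = 4). Ggcx, the carboxylase itself, stood at 50.6, 7.90, 14.5 and 25.0 CPM and was called above 10 CPM by edgeR (log2 1.29, SE 0.39, adjusted p = 0.041), a call lost with limma-voom (adjusted p = 0.068), with DESeq2 (0.079) and without mouse 1 (0.31), mouse 3 (0.058) or mouse 4 (0.13), and with mice 3 and 4 alone (0.12). A numbered copy of Ggcx held a further 11.4, 2.75, 7.01 and 0.847 CPM. Vkorc1l1 was at 14.9, 1.16, 9.98 and 14.4 CPM. The sheddases Adam10 (305 ± 69.6 CPM) and Adam17 (192 ± 24.6), of which Adam17 cleaves Mertk, and Socs3 (249 ± 101), a cytokine brake, were above 10 CPM.

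Of find-me and do-not-eat-me genes 5 of 7 tested were above 10 CPM, with Sirpa, the receptor of Cd47, at 857 ± 205 CPM, Calr at 551 ± 144 and Cd47 at 206 ± 17.7 (SD, n = 4). For phosphatidylserine exposure 4 of 6 were, led by the flippase subunit Tmem30a (475 ± 135) and the scramblase Ano6 (35.8 ± 12.5). In lipid handling after uptake, Apoe stood at 2123, 6023, 1489 and 2318 CPM, the cholesterol exporter Abca1 at 74.6, 217, 65.6 and 102 CPM, both highest in mouse 2, and the nuclear receptor Nr1h2 at 35.0 ± 5.88 CPM. Lamp1 (2348 ± 491 CPM), Lamp2 (1328 ± 186) and Rab7 (431 ± 54.8), which act in maturing phagosomes, were the highest of their list.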

How the data were processed

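Counts of 4 mice, each 1 library of 50 sorted cells, were analysed. Libraries were made with SMART-Seq v4 (11 PCR cycles) and Nextera XT, per the labels' protocols, and keep neither strand nor molecular identifiers. The authors deposited counts as whole numbers, with a pair of columns for each mouse. The tools named in the submitters' processing notes are STAR, RSEM, DESeq2, FastQC and Trim Galore, with build mm10; their versions and roles and the annotation were not given. Both columns of a mouse were summed, and for members with at least 100 counts they differed by a median of 1.08% (at most 11.4%). The authors' deposited log2 table matched log2(summed counts over a size factor + 1) and was otherwise not used. Of the file columns, 0 lacked a sample.

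CPM used edgeR's TMM factors (0.935 to 1.05). Genes with at least 10 counts in total were tested against 10 CPM in an intercept-only quasi-likelihood model (edgeR 4.0.16, R 4.3.3), with the F statistic taken from deviances and the tool's Poisson bound; the script was tested on simulated data. Adjusted p-values are Benjamini-Hochberg with a threshold of 0.05. Gene pairs used log2(CPM per kb + 0.1) with exonic lengths from GENCODE M21 on GRCm38, and an exact sign-flip test over 16 sign patterns. Intervals are 95% Clopper-Pearson intervals, and the limit for a count of 0 is 3 counts; both cover counting error only. p-values measure the spread between these mice, which for edgeR is partly shared over genes through a dispersion trend. Named are all members, the 3 highest genes of each pathway list (other names were added after seeing their values), the 2 highest markers and those without a count, and the 2 genes most alike to each member; a few genes named by this rule are left out. Members and lists were chosen with earlier results of these data known. Alternatives used other scaling, filters, tools (limma 3.58.1, DESeq2 1.42.0), single runs, and libraries left out. Rows that repeat a gene name with a number added were kept as deposited; the members have 0 such copies, while Trem2, Ggcx and the oligodendrocyte marker Mog are among the listed genes that have them, so their levels are uncertain.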

Additional observations from a re-analysis of the deposited data

Results flagged for a closer look

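Axl in mouse 2, at 58.4 CPM, stood apart from the other libraries, which lay between 34.0 and 35.8 CPM; the gap was 0.928 of the whole range, above Dixon's 95% critical value for 4 samples. This was the only one of the 10 genes examined that did so, and chance alone gives such a gap in about 1 of 20 groups. Mertk (425 CPM), Stab1 (75.9 CPM) and Itgb5 (1657 CPM) also had their highest value in mouse 2, without such a gap. The cause was not tested.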

How the results depend on the processing

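The count of 8 genes above and 0 below 10 CPM held under all 12 alternatives, including the libraries of mice 3 and 4 alone, an alternative chosen after seeing the data because mice 1 and 2 had few transgene counts. Without one mouse at a time these counts stayed at 8 and 0. The count below could not change there or with mice 3 and 4 alone, since edgeR then called 0 of all tested genes below. All 10 levels kept their direction and their side of the threshold, but sizes of the levels without a call moved. The log2 level of Tyro3 was -0.63, beside -5.23 with limma-voom and -1.72 without mouse 1, and that of Megf10 -1.43, beside -4.64 with limma-voom and -2.46 without mouse 3. Stab1 moved from 2.28 to 1.68 with mice 3 and 4 alone. Among the called levels, the weakest was that of Cd36, with an edgeR adjusted p of 0.04 without mouse 1. The count of pathway genes above 10 CPM was 53 to 56 over the alternatives, and 54 to 56 without one mouse. That of pathway genes below 10 CPM was 0, but 2 with no filter on counts, 3 with DESeq2 and 11 with limma-voom. Over all tested genes these alternatives called 2485, 2049 and 6164 below, and the cause was not tested. All 10 gene pairs kept the sign of their mean ratio under 11 alternatives. For Stab1 over Stab2 the sign could not change, since Stab2 had no count. For Mertk and Axl over Tyro3 it was fixed in mice 2 and 4, where Tyro3 had no count. No paired analysis was possible because the labels give a single group. Pairs with a gene at 0 counts depended on the pseudocount: with 1 in place of 0.1 CPM per kb the mean log2 ratio fell to 5.37 from 7.28 for Mertk over Tyro3, to 2.35 from 4.12 for Axl over Tyro3 and to 2.43 from 5.47 for Stab1 over Stab2. Sizes also depended on length: Mertk over Gas6 was 0.74 per kb and 1.51 without division by length, and Mfge8 over Gas6 was -1.95, beside -0.95 with the longest transcript and -2.62 without mouse 3. With 4 mice the sign-flip test cannot pass 0.05, so its p-values say nothing about stability. For Tyro3 in mice 2 and 4, the depth allows levels of up to 0.0321 and 0.0334 CPM.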

Other observations

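Some genes of the pathway, picked out after their values were seen, differed widely between libraries. Cybb, the membrane subunit of the phagocyte oxidase, stood at 0.037, 53.7, 23.2 and 51.7 CPM, with 4 counts in mouse 1, and edgeR did not separate it from 10 CPM (log2 1.69, SE 0.82). The scavenger receptor gene Olr1 was at 4.31, 12.8, 0 and 44.0 CPM, highest in mouse 4 and without a count in mouse 3. Ptk2, the focal adhesion kinase gene that acts behind integrins, was at 12.9, 0.182, 50.7 and 9.96 CPM. Itgb8, a further partner of alpha v, was at 9.85, 0, 6.18 and 0.0111 CPM and thus had nearly all its counts in mice 1 and 3, the libraries that held Tyro3 and Megf10. By contrast Becn1, a gene of autophagy and phagosome maturation, was nearly constant, with a mean of 98.1 ± 1.70 CPM (SD, n = 4).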
